A study of Homo sapiens with 8 samples.

Results

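The genes described here are the plasminogen activators PLAT and PLAU, the urokinase receptor gene PLAUR, the serpins SERPINE2 and SERPINB2, and the coagulation pair F3 and TFPI2. They were taken by symbol as 7 of the 58336 Ensembl gene identifiers in the count table. Of these 7 genes, 6 had enough reads to be tested and SERPINB2 had 0 counts in all 8 libraries. The libraries were made from poly(A) RNA of SUM159. This is a long-established human line, derived from a triple-negative tumour of the breast, whose cells have mesenchymal features.

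Lung-recovered cells (3 libraries) were ITGB4-low clone 1 cells that had been put into mouse lungs by tail-vein injection. Bleomycin, which injures and inflames the airspaces, was given to these mice by the tracheal route. At the end the lungs were dissociated, the suspension was kept in culture overnight, and tdTomato-positive tumour cells were sorted before RNA extraction. ITGB4-low clone 1 cells (3 libraries) and ITGB4-high cells (2 libraries) came from dishes. For cells taken from lungs the labels name a Ham's F-12 medium with serum, insulin and hydrocortisone, and they name no other medium. All ITGB4-low material is 1 clone, so traits of that clone and of low ITGB4 cannot be told apart. The lung stay, bleomycin, dissociation, overnight culture and sorting all separate the lung-recovered libraries from the dish-grown ones and cannot be told apart either.

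Library totals ran from 20413700 to 27218800 counts, and each group's depth was within that range. ITGB4, the integrin subunit that names the groups, stood at 395 ± 16.8 CPM (counts scaled to library size, SD, n = 3) in lung-recovered cells, 7.29 ± 1.92 CPM (n = 3) in ITGB4-low cells and 398 ± 30.7 CPM (n = 2) in ITGB4-high cells. The lung-recovered libraries carry the label ITGB4 low, after the clone they came from, while their ITGB4 range lay within or next to that of ITGB4-high cells (log2 fold change -0.01, edgeR adjusted p = 0.903). The name lung-recovered is therefore used for them. The mesenchymal filament gene VIM averaged 4377 CPM in lung-recovered, 4561 CPM in ITGB4-low and 4828 CPM in ITGB4-high cells, and the epithelial cadherin CDH1 had 0 counts in every library.

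Plasminogen is a circulating zymogen that becomes the broad protease plasmin when cut by tissue-type plasminogen activator (tPA, from PLAT) or by urokinase (uPA, from PLAU). Urokinase acts at the cell surface while bound to its receptor uPAR, the product of PLAUR. Serpins trap these proteases in a covalent complex: PAI-2 (SERPINB2) and protease nexin-1 (SERPINE2) are among those that act on urokinase. Tissue factor (F3) is the cell-surface starter of blood coagulation. TFPI2 encodes a Kunitz-type inhibitor that acts on tissue factor-bound factor VIIa, plasmin and other proteases and is deposited in the extracellular matrix. In breast cancer, uPA and its receptor are known for their link with invasion.

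RefSeq promoter windows (GRCh38.p14) were found for 6 of the 7 genes, in 8 windows, since PLAU and SERPINE2 have more than 1 annotated start. The 250 bases before each start were searched for the AP-1 motif TGANTCA, which reads the same on both strands. A match was present in the windows of F3, PLAUR, TFPI2 and SERPINB2, and in neither window of PLAU or SERPINE2. Over all 35116 windows of this length in the table, 6.57% held the motif. The windows with a match are shown because they set apart 4 members that share a short sequence, and the second PLAU window because PLAU had the largest change. Capitals mark the AP-1 matches, and each run is written 5′ to 3′ on the strand of its gene. The windows lie at chr1:94541760-94542009 (F3, minus strand), chr19:43670170-43670419 (PLAUR, minus strand), chr7:93890754-93891003 (TFPI2, minus strand), chr18:63887455-63887704 (SERPINB2, plus strand) and chr10:73910882-73911131 (PLAU, plus strand).
F3: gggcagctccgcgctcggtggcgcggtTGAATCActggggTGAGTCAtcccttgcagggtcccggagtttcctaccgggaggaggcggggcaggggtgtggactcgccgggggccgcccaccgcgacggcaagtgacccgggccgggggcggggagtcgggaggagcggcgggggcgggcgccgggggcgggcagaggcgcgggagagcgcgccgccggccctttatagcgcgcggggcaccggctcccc
PLAUR: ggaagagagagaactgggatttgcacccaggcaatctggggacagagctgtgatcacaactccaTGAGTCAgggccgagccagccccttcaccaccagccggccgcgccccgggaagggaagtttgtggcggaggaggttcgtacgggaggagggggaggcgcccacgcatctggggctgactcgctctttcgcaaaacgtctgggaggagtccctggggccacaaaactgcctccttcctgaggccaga
TFPI2: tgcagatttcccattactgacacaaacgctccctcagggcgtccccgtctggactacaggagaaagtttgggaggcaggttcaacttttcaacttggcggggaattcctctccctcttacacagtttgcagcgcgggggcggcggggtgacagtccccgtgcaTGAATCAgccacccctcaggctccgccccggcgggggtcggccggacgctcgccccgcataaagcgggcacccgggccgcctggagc
SERPINB2: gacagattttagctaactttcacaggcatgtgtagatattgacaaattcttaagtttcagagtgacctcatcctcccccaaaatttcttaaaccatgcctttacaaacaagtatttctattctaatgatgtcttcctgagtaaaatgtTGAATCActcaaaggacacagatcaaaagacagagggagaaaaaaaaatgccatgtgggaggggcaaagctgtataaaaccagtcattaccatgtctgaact
PLAU: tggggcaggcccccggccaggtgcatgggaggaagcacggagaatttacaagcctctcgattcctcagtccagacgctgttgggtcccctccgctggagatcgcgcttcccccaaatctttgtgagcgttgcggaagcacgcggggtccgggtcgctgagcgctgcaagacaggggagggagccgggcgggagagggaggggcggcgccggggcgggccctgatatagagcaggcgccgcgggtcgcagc

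In F3 the 2 matches ended 217 and 204 bases before the start. The PLAUR match ended 180 bases before it, that of SERPINB2 96 bases and that of TFPI2 81 bases before it. The GC box (GGGCGG, both strands) was found 4 times in F3, 3 times in the second PLAU window, 2 times in TFPI2, once in the first and 2 times in the second SERPINE2 window, and 42.6% of all windows held it. The ETS core (GGAAG, both strands) was found in 65.1% of all windows, among them those of PLAUR, SERPINB2, the second PLAU window and the first SERPINE2 window. A TATA box (TATAAA, both strands) was present in F3 and SERPINB2 and in 10.7% of all windows. No match overlapped another. These matches describe letters in the reference genome. Whether a factor binds there was not measured, and a part of these letters in the levels given below was not tested. Of the 4 genes with the AP-1 letters, SERPINB2 was not detected. PLAUR and F3 were higher in both groups of clone 1 cells than in ITGB4-high cells. TFPI2 was lower in ITGB4-low than in ITGB4-high cells. From ITGB4-low to lung-recovered cells PLAUR and TFPI2 were higher, and the F3 difference did not pass the test.

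**Figure D1:**
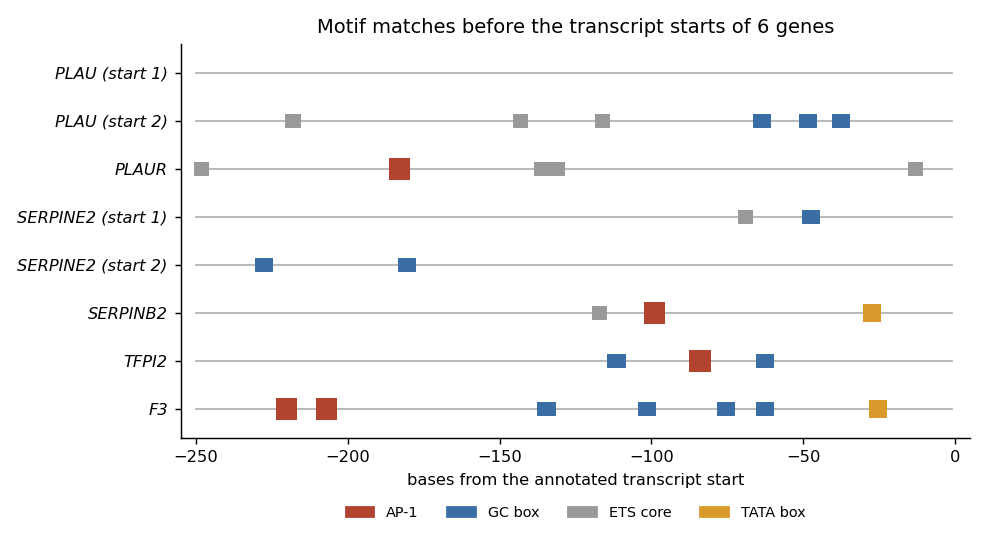
Matches to the AP-1, GC box, ETS core and TATA motifs (coloured boxes) in the 250 bases before the annotated starts of 6 genes, by distance from the start in bases. AP-1 matches are present in PLAUR, SERPINB2, TFPI2 and F3 and in neither start of PLAU or SERPINE2.

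Compared with dish-grown ITGB4-low cells, lung-recovered cells had higher levels of 5 of the 6 tested genes: both activators, the urokinase receptor, SERPINE2 and TFPI2. None of the 6 was lower. In these bulk libraries, fewer cells with a gene and less RNA of it per cell cannot be told apart. The largest difference was that of PLAU, from a very low base, followed by TFPI2, and these 2 were the members at least 2-fold higher. Over all 15220 genes tested, edgeR's quasi-likelihood test called 30.1% at a Benjamini-Hochberg adjusted p under 0.05, with 14.7% higher and 15.4% lower. Called and at least 2-fold higher were 3.2% of all genes, and 2.31% were called and at least 2-fold lower. For 4 of the 6 members, and for 43.3% of all genes, no library of 1 group lay within the range of the other. The median log2 fold change of the 6 genes was 0.39, against 0.000315 over all genes tested. The members, and the gene lists used below, were chosen with earlier results of these data known. Their shares and medians, here and below, therefore describe the chosen genes and are no test of them against all genes.

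Compared with ITGB4-high cells, ITGB4-low clone 1 cells had more PLAT, PLAUR, SERPINE2 and F3 and less PLAU and TFPI2. All 6 genes passed the test, 4 higher and 2 lower, where 56.2% of all genes were called, 28.6% higher and 27.6% lower. PLAUR and SERPINE2 were at least 2-fold higher (9.12% of all genes were), and PLAU and TFPI2 at least 2-fold lower (3.95% of all genes were). The groups were apart in every library for all 6, and for 68.7% of all genes. Their median log2 fold change was 0.60, against 0.000902 over all genes. Compared with ITGB4-high cells, lung-recovered cells had more PLAT, PLAUR, SERPINE2 and F3, less PLAU, and a level of TFPI2 whose difference did not pass the test. In that comparison 4 members were higher and 1 lower, where 51.2% of all genes were called, 26.2% higher and 25% lower. PLAUR and SERPINE2 were at least 2-fold higher (8.08% of all genes were), and PLAU at least 2-fold lower (2.5% of all genes were). The libraries did not overlap for 5 of the 6 members and for 66.8% of all genes. The members' median was 0.68, against 0.00512 over all genes. The 3 comparisons share libraries pairwise, so their results are not independent of each other.

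**Figure D2:**
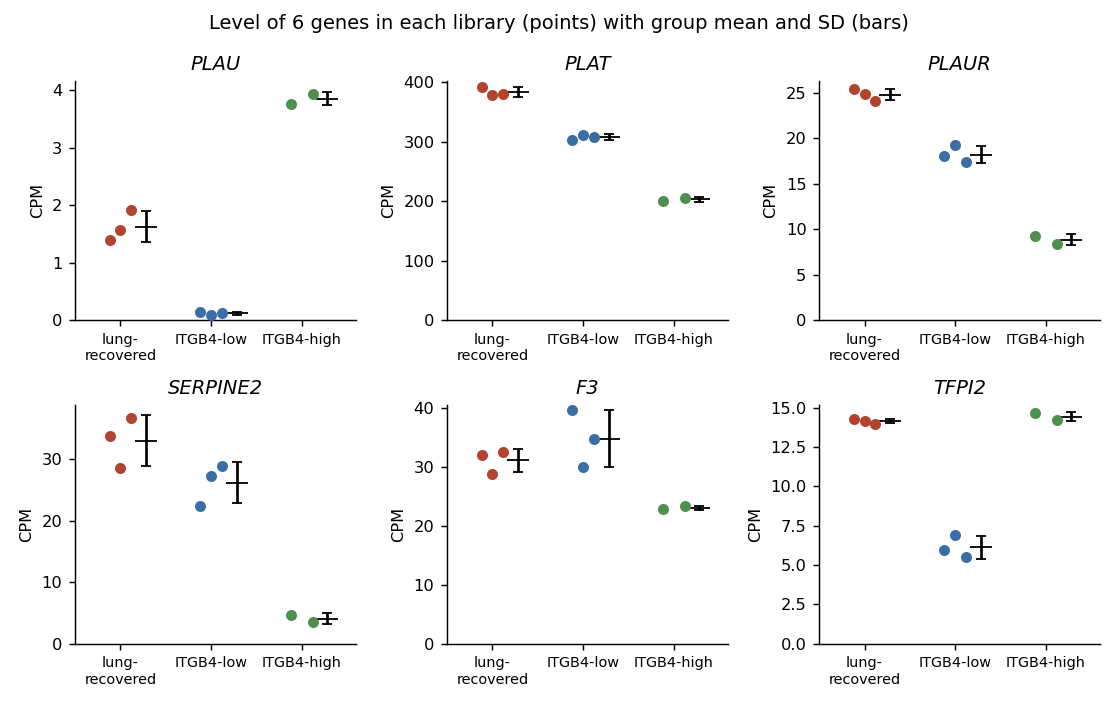
CPM of 6 genes in each library (points) with the group mean and SD (bars), for lung-recovered, ITGB4-low and ITGB4-high cells. PLAT and PLAUR are highest in lung-recovered cells, PLAU is near 0 in ITGB4-low cells, and TFPI2 is low in ITGB4-low cells alone.

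PLAT (ENSG00000104368, hg38 chromosome 8, 42175233 to 42207724) was the most abundant of the 7 genes. Its level was 392, 378 and 380.3 CPM in lung-recovered libraries, 302, 312 and 308 CPM in ITGB4-low libraries and 200.2 and 206 CPM in ITGB4-high libraries. The 3 groups did not overlap, and the spread within each was small beside the steps between them. Lung-recovered cells were higher than ITGB4-low cells by 0.32 on the log2 scale (SE 0.04, edgeR adjusted p = 2.73e-06) and higher than ITGB4-high cells by 0.92 (SE 0.05, adjusted p = 2.18e-12). ITGB4-low cells were higher than ITGB4-high cells by 0.60 (SE 0.04, adjusted p = 8.21e-10).

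PLAU (ENSG00000122861, chromosome 10, 73909177 to 73917497), the urokinase gene, was scarce throughout, lowest in ITGB4-low cells and highest in ITGB4-high cells. There were 33, 33 and 51 counts in the lung-recovered libraries, 3, 2 and 3 counts in the ITGB4-low libraries and 100 and 101 counts in the ITGB4-high libraries. As levels these were 1.39, 1.56 and 1.92 CPM in lung-recovered, 0.146, 0.0938 and 0.121 CPM in ITGB4-low and 3.77 and 3.94 CPM in ITGB4-high cells. The groups did not overlap: ITGB4-low libraries were close to the level of no reads, and lung-recovered libraries lay between them and the ITGB4-high libraries. From the summed counts, PLAU was higher in lung-recovered than in ITGB4-low cells by a ratio of 13.6 (95% counting interval 6.70 to 32.4), and the fitted difference was 3.71 on the log2 scale (SE 0.37, edgeR adjusted p = 1.32e-07). It was 32.2-fold lower in ITGB4-low than in ITGB4-high cells (counting interval 16.0 to 75.5, log2 fold change -4.95, SE 0.33, adjusted p = 1.29e-10). Lung-recovered cells stayed below ITGB4-high cells (-1.24, SE 0.20, adjusted p = 3.28e-05). Such intervals use counts summed over the libraries of a group, so they hold counting error alone and no spread between libraries. Reads were not tagged by molecule, so copies of 1 molecule could not be told from separate ones. Of the 2950 exon bases of PLAU, 916 are also exons of C10orf55 on the opposite strand, whose counts were 0 to 3 per library. The library kit keeps strand, but whether the counting used it is not given in the sources used here, so reads over those bases are uncertain.

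PLAUR (ENSG00000011422, chromosome 19, 43646095 to 43670547) followed PLAT in order and not the gene of its ligand. It was at 25.4, 24.9 and 24.2 CPM in lung-recovered libraries, 18.0, 19.3 and 17.4 CPM in ITGB4-low libraries and 9.28 and 8.42 CPM in ITGB4-high libraries. Again no library of a group overlapped another group. The log2 fold change of lung-recovered over ITGB4-low cells was 0.45 (SE 0.07, edgeR adjusted p = 5.66e-05) and that of lung-recovered over ITGB4-high cells was 1.49 (SE 0.09, adjusted p = 2.78e-11). ITGB4-low cells exceeded ITGB4-high cells by 1.04 (SE 0.09, adjusted p = 6.57e-09). ITGB4-low cells thus had more receptor mRNA and less ligand mRNA than ITGB4-high cells.

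SERPINE2 (ENSG00000135919, chromosome 2, 223975112 to 224039319), which encodes an inhibitor of thrombin, urokinase and tPA, was much higher in both groups of clone 1 cells than in ITGB4-high cells. Its level was 33.7, 28.5 and 36.7 CPM in lung-recovered libraries, 22.4, 27.3 and 28.8 CPM in ITGB4-low libraries and 4.71 and 3.47 CPM in ITGB4-high libraries. Lung-recovered and ITGB4-low libraries overlapped, and every library of both lay above ITGB4-high. The step was 8.06-fold for lung-recovered over ITGB4-high cells (log2 fold change 3.01, SE 0.14, edgeR adjusted p = 1.48e-12) and 6.40-fold for ITGB4-low over ITGB4-high cells (2.68, SE 0.15, adjusted p = 7.38e-12). The difference of lung-recovered over ITGB4-low cells was small (0.33, SE 0.10, adjusted p = 0.0123). That call ended without ITGB4-low replicate 1 (0.24, adjusted p = 0.0543) and without lung-recovered replicate 3 (0.25, adjusted p = 0.104).

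SERPINB2 (ENSG00000197632, chromosome 18, 63871692 to 63903890), the PAI-2 gene, had 0 counts in each of the 8 libraries. A count of 0 allows up to 3 counts per group, or 0.0419 CPM in lung-recovered, 0.0449 CPM in ITGB4-low and 0.0575 CPM in ITGB4-high cells. Its neighbour SERPINB10 shares 547 of its 2748 exon bases on the same strand and also had 0 counts. No statement on a difference of SERPINB2 between the groups is possible at this depth.

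F3 (ENSG00000117525, chromosome 1, 94529225 to 94541800), the tissue factor gene, was higher in both groups of clone 1 cells than in ITGB4-high cells. It was at 32.0, 28.8 and 32.5 CPM in lung-recovered libraries, 39.7, 30.0 and 34.7 CPM in ITGB4-low libraries and 22.9 and 23.3 CPM in ITGB4-high libraries. The lung-recovered range overlapped that of ITGB4-low, whose own spread was wide, and neither reached down to ITGB4-high. The log2 fold change was 0.43 (SE 0.09, edgeR adjusted p = 5.54e-04) for lung-recovered over ITGB4-high cells and 0.59 (SE 0.09, adjusted p = 1.70e-05) for ITGB4-low over ITGB4-high cells. For lung-recovered over ITGB4-low cells it was -0.16 (95% interval -0.33 to 0.0089, adjusted p = 0.149). Without ITGB4-low replicate 2 that difference passed the test (-0.25, adjusted p = 0.0170).

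TFPI2 (ENSG00000105825, chromosome 7, 93885396 to 93890991) was low in dish-grown clone 1 cells and overlapped between the others. Its level was 14.3, 14.2 and 13.99 CPM in lung-recovered libraries, 5.93, 6.94 and 5.51 CPM in ITGB4-low libraries and 14.6 and 14.2 CPM in ITGB4-high libraries. Every ITGB4-low library lay below every library of the other groups. The log2 fold change of lung-recovered over ITGB4-low cells was 1.21 (SE 0.10, edgeR adjusted p = 7.02e-09), and that of ITGB4-low over ITGB4-high cells was -1.24 (SE 0.11, adjusted p = 5.23e-09). Lung-recovered over ITGB4-high cells gave -0.03 with a 95% interval of -0.23 to 0.17 (adjusted p = 0.824), which bounds any difference without showing that there is none. Of 2682 exon bases of TFPI2, 44 are shared with GNGT1 and 79 with AC002076.1, both on the opposite strand.

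**Figure D3:**
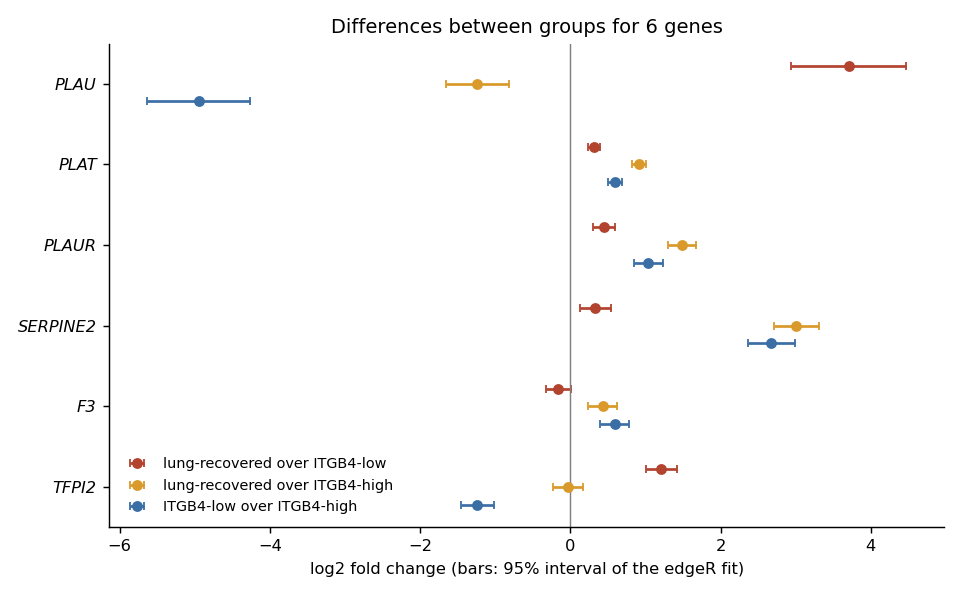
Log2 fold changes with 95% intervals for 6 genes in the 3 comparisons. PLAU and TFPI2 lie on the right for lung-recovered over ITGB4-low cells and on the left for ITGB4-low over ITGB4-high cells, while PLAT, PLAUR and SERPINE2 lie on the right in all 3.

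Levels of different genes were compared only per kilobase of annotated exon (CPM per kb), which takes all exons of a gene as 1 length. In lung-recovered cells the order was PLAT (57.9 ± 1.17 CPM per kb, SD, n = 3), F3 (10.8 ± 0.694), PLAUR (5.57 ± 0.140), TFPI2 (5.28 ± 0.0564), SERPINE2 (3.71 ± 0.468) and PLAU (0.550 ± 0.0918). In ITGB4-low cells it was PLAT (46.5 ± 0.714 CPM per kb, n = 3), F3 (12.1 ± 1.69), PLAUR (4.09 ± 0.216), SERPINE2 (2.94 ± 0.379), TFPI2 (2.28 ± 0.274) and PLAU (0.0407 ± 0.00880). In ITGB4-high cells it was PLAT (30.7 ± 0.574 CPM per kb, n = 2), F3 (8.03 ± 0.109), TFPI2 (5.38 ± 0.109), PLAUR (1.99 ± 0.137), PLAU (1.31 ± 0.0392) and SERPINE2 (0.460 ± 0.0992). PLAT and F3 thus led in every group, and the order below them changed. The libraries of SERPINE2 and TFPI2 overlapped in ITGB4-low cells, so their order there is not settled, and no other neighbours in these orders overlapped.

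Ratios of counts within a library do not depend on the scaling between libraries. They were chosen after the levels were seen, and are given per exon length. The SERPINE2 to PLAT ratio was 0.0640, 0.0562 and 0.0719 in lung-recovered, 0.0551, 0.0652 and 0.0696 in ITGB4-low and 0.0175 and 0.0126 in ITGB4-high libraries, so that ITGB4-high alone stood apart. The F3 to TFPI2 ratio was 2.09, 1.90 and 2.17 in lung-recovered, 6.25, 4.03 and 5.88 in ITGB4-low and 1.46 and 1.53 in ITGB4-high libraries, with no overlap of any groups. Over the 6 comparisons of these ratios, the exact two-sided permutation test gave p = 0.1 for the 5 without overlap (adjusted p = 0.12), 0.1 being the smallest p this design allows. For SERPINE2 per PLAT in lung-recovered against ITGB4-low cells the exact permutation p was 0.8 (adjusted p = 0.8). With 0.1 as the smallest possible p, no ratio could have passed a threshold of 0.05, so the test cannot decide whether these ratios differ.

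**Figure D4:**
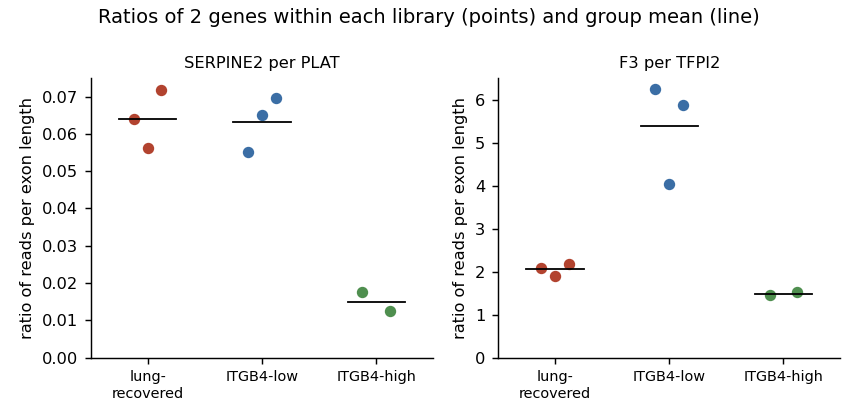
Ratios of reads per exon length of 2 genes within each library (points) with the group mean (line). SERPINE2 per PLAT is lowest in ITGB4-high cells, and F3 per TFPI2 is highest in ITGB4-low cells.

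Genes around the 7 members were taken from 8 lists that hold 113 genes, of which 60 were tested and 23 had 0 counts in all libraries. In lung-recovered against ITGB4-low cells 21 of the 60 were called higher and 20 lower (14.7% and 15.4% over all genes), with a median log2 fold change of -0.03. In ITGB4-low against ITGB4-high cells 30 were higher and 14 lower (28.6% and 27.6% over all genes), with a median of 0.30. In lung-recovered against ITGB4-high cells 31 were higher and 8 lower (26.2% and 25% over all genes), with a median of 0.42. The counts by list follow.

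Plasminogen itself (PLG) had 0 counts in every library. Of 6 tested genes for cell-surface plasminogen receptors, 1 was higher and 1 lower in lung-recovered than in ITGB4-low cells (14.7% and 15.4% over all genes). In ITGB4-low against ITGB4-high cells 2 were higher and 1 was lower (28.6% and 27.6% over all genes). The 2 calls in lung-recovered against ITGB4-low cells dropped to 1 without any of ITGB4-low replicate 2, ITGB4-low replicate 3, lung-recovered replicate 1 or lung-recovered replicate 3. The gene that fell was the actin regulator CFL1 (-0.15, SE 0.04, edgeR adjusted p = 0.0181). The glycolytic enzyme and plasminogen receptor ENO1 averaged 2744 CPM in lung-recovered and 2857 CPM in ITGB4-low cells (log2 fold change -0.06, edgeR adjusted p = 0.438). ANXA2 and S100A10, which form a complex that binds tPA and plasminogen, had log2 fold changes of -0.04 and 0.03 in the same comparison (edgeR adjusted p = 0.542 and 0.689). The keratin KRT8, another surface receptor of plasminogen, rose in lung-recovered cells (0.27, SE 0.05) to 194 ± 15.3 CPM, against 161 ± 7.29 CPM in ITGB4-low cells (n = 3 each). In ITGB4-low against ITGB4-high cells KRT8 rose by 0.99 (SE 0.06) and S100A10 fell by 0.21 (SE 0.05).

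Among 7 further inhibitors of the activators and plasmin, 3 were tested and 2 were higher in lung-recovered than in ITGB4-low cells (14.7% over all genes). The antiplasmin gene SERPINF2 had 36 counts in lung-recovered, 1 in ITGB4-low and 3 in ITGB4-high cells, a ratio of 33.6 over ITGB4-low (95% counting interval 5.66 to 1363). The protein C inhibitor gene SERPINA5 had 24, 2 and 6 counts in the same order, a ratio of 11.2 (2.78 to 97.8) over ITGB4-low. Both were called higher in lung-recovered than in ITGB4-low cells at levels under 1 CPM, and neither was called without lung-recovered replicate 1 or without lung-recovered replicate 2. SERPINI1, the neuroserpin gene, stood at 2.25 CPM in lung-recovered and 2.33 CPM in ITGB4-low cells (log2 fold change -0.05, edgeR adjusted p = 0.894).

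Of 13 tested endocytic and partner receptors, 4 were higher and 7 lower in lung-recovered than in ITGB4-low cells (14.7% and 15.4% over all genes). In ITGB4-low against ITGB4-high cells 8 were higher and 3 lower (28.6% and 27.6% over all genes). LRP1, the scavenger receptor that clears protease and serpin complexes, was at 28.8 ± 2.39 CPM in lung-recovered, 89.5 ± 1.76 CPM in ITGB4-low (n = 3 each) and 30.4 ± 1.496 CPM in ITGB4-high cells (n = 2). It fell in lung-recovered against ITGB4-low cells (log2 fold change -1.64, SE 0.06) and rose in ITGB4-low against ITGB4-high cells (1.56, SE 0.07). Its relative VLDLR, which binds the same complexes, differed in pattern: it was at 7.604 CPM in lung-recovered, 3.95 CPM in ITGB4-low and 0.423 CPM in ITGB4-high cells, with log2 fold changes of 0.94 (SE 0.14) and 3.21 (SE 0.27) for the same comparisons. The collagen receptor MRC2, also called the uPAR-associated protein, was at 167, 147 and 67.8 CPM in that order of groups. The vitronectin receptor subunit ITGB3 fell in lung-recovered against ITGB4-low cells (-0.91, SE 0.09). So did EGFR (-0.38, SE 0.05), ITGB1 (-0.21, SE 0.04) and ITGA5 (-0.15, SE 0.04), while ITGA3 rose (0.14, SE 0.04).

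In the list of the tissue factor pathway and the protease-activated receptors 11 genes were tested. Of these, 4 were higher and 3 lower in lung-recovered than in ITGB4-low cells (14.7% and 15.4% over all genes). In ITGB4-low against ITGB4-high cells 7 were higher and 3 lower (28.6% and 27.6% over all genes). Factor VII, factor IX and factor XIII A-subunit genes (F7, F9, F13A1) had 0 counts in every library. TFPI, the classical inhibitor of tissue factor, moved unlike TFPI2: it averaged 55.3 ± 1.22 CPM in lung-recovered, 64.5 ± 3.83 CPM in ITGB4-low (n = 3 each) and 39.0 ± 1.36 CPM in ITGB4-high cells (n = 2). Its log2 fold change was -0.23 (SE 0.05) for lung-recovered over ITGB4-low and 0.73 (SE 0.06) for ITGB4-low over ITGB4-high cells. The thrombin receptor F2R rose in lung-recovered against ITGB4-low cells (0.51, SE 0.05), and so did F2RL2 (3.28, SE 0.21), at 6.16 CPM in lung-recovered and 0.624 CPM in ITGB4-low cells, and F2RL3 (0.63, SE 0.16). F2RL1, the receptor cut by trypsin-like proteases and by tissue factor complexes, was at 24.6 CPM in lung-recovered and 26.6 CPM in ITGB4-low cells (-0.11, edgeR adjusted p = 0.202). The thrombin cofactor thrombomodulin (THBD) rose (0.71, SE 0.06) to 67.1 ± 2.66 CPM in lung-recovered cells, against 41.1 ± 2.95 CPM in ITGB4-low cells. GAS6 (-0.56, SE 0.06) and PROS1 (-0.30, SE 0.07) fell in the same comparison.

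Of 12 clade B serpins besides SERPINB2, 6 were tested. In lung-recovered against ITGB4-low cells 4 were higher and 1 lower (14.7% and 15.4% over all genes). These 5 calls fell to 3 with the 2 groups alone and with the filter of 1 CPM in 2 libraries. SERPINB5 (maspin) rose (log2 fold change 0.55, SE 0.05) to 73.1 ± 1.60 CPM, against 50.1 ± 2.28 CPM in ITGB4-low cells (n = 3 each). SERPINB1, an inhibitor of neutrophil proteases, rose by 0.35 (SE 0.04) and SERPINB8 by 0.27 (SE 0.06). SERPINB9, which inhibits granzyme B, had 32 counts in lung-recovered cells and 0 in both dish-grown groups, at least 9.95-fold higher than in ITGB4-low cells against a floor of 3 counts over the group. SERPINB7 was the member that fell, with 10 counts in lung-recovered, 40 in ITGB4-low and 7 in ITGB4-high cells (-2.05 for lung-recovered over ITGB4-low, SE 0.52, edgeR adjusted p = 0.00514). SERPINB6 was at 84.3 CPM in lung-recovered and 86.0 CPM in ITGB4-low cells (-0.03, edgeR adjusted p = 0.695).

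Of 15 other serpins 4 were tested. SERPINA1, alpha-1 antitrypsin, rose in lung-recovered cells to 40.1 ± 1.00 CPM, against 3.07 ± 0.748 CPM in ITGB4-low cells (n = 3 each) and 4.08 ± 0.0416 CPM in ITGB4-high cells (n = 2). Its log2 fold change over ITGB4-low cells was 3.69 (SE 0.11, edgeR adjusted p = 7.25e-16). SERPINF1, the gene of pigment epithelium-derived factor, had 387 counts in lung-recovered, 1 in ITGB4-low and 0 in ITGB4-high cells, a ratio of 361 over ITGB4-low (95% counting interval 64.4 to 14301). The collagen chaperone SERPINH1 fell against ITGB4-low cells (-0.16, SE 0.04) and was at 353, 394 and 201 CPM in lung-recovered, ITGB4-low and ITGB4-high cells. Of 20 membrane serine proteases and Kunitz inhibitors 4 were tested, and in lung-recovered against ITGB4-low cells the secreted protease PRSS23 fell (-0.60, SE 0.07) while SPINT2 rose (1.39, SE 0.39) at a level of 0.713 CPM. The 2 calls of this list fell to 1 with DESeq2 and with the filter of 1 CPM in 2 libraries.

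The list of genes whose products plasmin or urokinase can cut or release had 13 tested genes. Of these, 3 were higher and 6 lower in lung-recovered than in ITGB4-low cells (14.7% and 15.4% over all genes). In ITGB4-low against ITGB4-high cells 8 were higher and 4 lower (28.6% and 27.6% over all genes). Fibronectin (FN1) fell in lung-recovered cells (log2 fold change -0.92, SE 0.04) to 2821 ± 98.6 CPM, against 5344 ± 164 CPM in ITGB4-low cells. The laminin chain LAMB3 rose (2.37, SE 0.05), and LAMA3 was at 19.1 CPM in lung-recovered and 19.98 CPM in ITGB4-low cells (edgeR adjusted p = 0.661). MMP2 (-0.63, SE 0.04) and THBS1 (-1.45, SE 0.07) fell and TGFB1 (0.32, SE 0.05) rose.

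**Figure D5:**
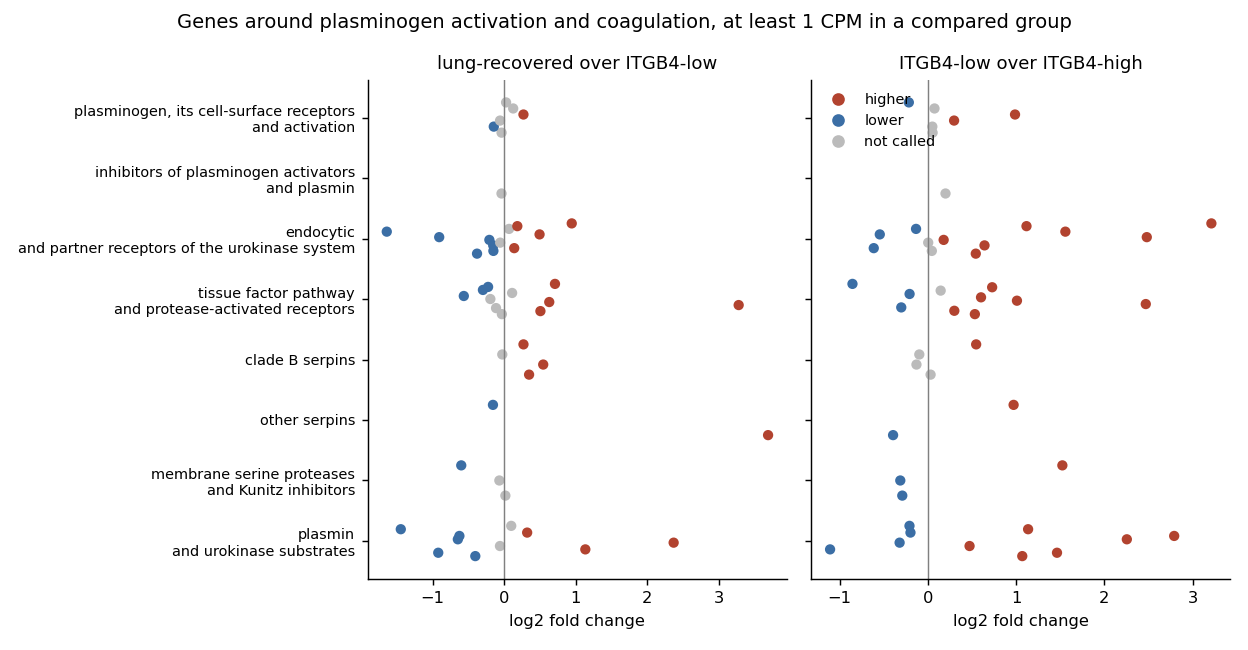
Log2 fold changes of pathway genes by list for lung-recovered over ITGB4-low cells (left) and ITGB4-low over ITGB4-high cells (right), for tested genes with at least 1 CPM in a compared group and more than 3 counts in each. Red and blue points passed the test and grey points did not. In the left panel, SERPINB7, the clade B serpin called lower, and SERPINB9, called higher, are under 1 CPM and are not drawn. Other called genes not drawn there include SERPINF1, with 1 count in ITGB4-low cells, and SERPINF2, SERPINA5, SPINT2 and FPR1, all under 1 CPM. The receptor and substrate lists there hold points on both sides.

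By profile over the 8 libraries, measured as the root mean square difference of centred log2 CPM, the genes most like each member among 9776 genes were as follows. PLAU was nearest to the keratin KRT6A (0.21) and the calcium-binding protein gene S100A2 (0.22), and TFPI2 to the ceramide synthase gene CERS4 (0.09) and the stress cytokine gene GDF15 (0.11). KRT6A was at 5.94 CPM in lung-recovered, 0.737 CPM in ITGB4-low and 12.7 CPM in ITGB4-high cells, the order of PLAU. GDF15 was at 39.6, 18.1 and 38.9 CPM in the same order of groups, which is the order of TFPI2 apart from the first and last groups, whose difference did not pass the test for either gene. PLAUR was nearest to NXN (0.06) and SLC43A2 (0.08), and PLAT to B9D1 (0.05) and FKBP11 (0.05). SERPINE2 was nearest to RNF125 (0.17) and CRAT (0.21), and F3 to the laminin chain LAMA3 (0.06) and CCDC88A (0.07). Such profiles rest on 3 group levels and describe likeness only.

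Each tested member was set beside the genes within 5 Mb of it. In ITGB4-low against ITGB4-high cells, the median log2 fold change of the tested neighbours was 0.16 for PLAU (77 genes), -0.08 for PLAUR (194), 0.13 for PLAT (43), 0.26 for SERPINE2 (47), -0.0037 for TFPI2 (47) and 0.11 for F3 (41). In lung-recovered against ITGB4-low cells the neighbours' medians ran from -0.07 (SERPINE2) to 0.04 (PLAUR).

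Lung cells of other types also express these genes, PLAUR and SERPINB2 in macrophages and PLAT in endothelium among them. The host lungs were those of mice, while the counts are of human genes. Low or 0 counts of the human markers below therefore cannot show that mouse cells were absent, and higher counts cannot show that they were present. How reads of mouse cells would be counted was not tested. Of 14 macrophage and myeloid markers, FCGR3A, AIF1 and TYROBP had 0 counts in all libraries. The summed level of the list was 7.86 to 8.84 CPM in lung-recovered, 6.44 to 6.70 CPM in ITGB4-low and 3.70 to 4.68 CPM in ITGB4-high libraries. The group means of PLAUR have that order, and so do those of PLAT, SERPINE2, KRT8 and MRC2. CD68, a lysosomal gene that tumour cells also express, led the list in every library. Of these 14 markers 3 were tested, CD68, PTPRC and MARCO. In lung-recovered against ITGB4-low cells 1 was higher and 0 were lower (14.7% and 15.4% over all genes). All 3 were higher in lung-recovered than in ITGB4-high cells (26.2% over all genes). The scavenger receptor gene MARCO, a marker of alveolar macrophages, was at 1.46 ± 0.159 CPM in lung-recovered, 0.788 ± 0.231 CPM in ITGB4-low (n = 3 each) and 0.725 ± 0.309 CPM in ITGB4-high cells (n = 2), and it rose in lung-recovered against ITGB4-low cells by 0.88 on the log2 scale (SE 0.29, adjusted p = 0.0271 by edgeR). The leukocyte marker PTPRC had 55 counts in lung-recovered, 58 in ITGB4-low and 0 in ITGB4-high cells, and its difference between lung-recovered and ITGB4-low cells did not pass the test (-0.17, adjusted p = 0.752). Of 10 endothelial markers CLDN5 had 0 counts throughout and CDH5 had 1, 0 and 1 counts in lung-recovered, ITGB4-low and ITGB4-high cells, and the summed level of 17.1 to 17.2, 14.9 to 17.2 and 21.98 to 22.4 CPM was mostly ERG. Of 10 lung epithelial markers, SFTPA1, SFTPD, SCGB1A1, HOPX and FOXJ1 had 0 counts throughout, and the sums were 0.865 to 1.34 CPM in lung-recovered, 1.75 to 2.29 CPM in ITGB4-low and 0.830 to 1.25 CPM in ITGB4-high libraries. Of 11 fibroblast and smooth muscle markers the sums were 13.6 to 14.4 CPM in lung-recovered, 16.0 to 20.2 CPM in ITGB4-low and 9.59 to 10.6 CPM in ITGB4-high libraries. The part of the remaining marker signal in the levels of PLAUR and PLAT was not tested.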

How the data were processed

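Gene-level RNA-seq read counts of 8 SUM159 libraries were analysed. The deposited values are raw counts, 1 column per library, as whole numbers that the authors had not normalised. Alignment tools and build, per the submitters' processing notes, include STAR 2.7.1a and hg38. Not given in the sources used here are the counter, whether it used strand, and the gene models. The kit keeps strand, per the labels' protocols. Symbols, coordinates and exon lengths came from GENCODE release 29 (58216 of 58336 identifiers matched).

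All libraries entered 1 edgeR 4.0.16 fit (R 4.3.3) with a term per group, after filterByExpr (15220 genes, 99.93% of counts) and TMM scaling. The 3 differences were tested by the quasi-likelihood F test, with Benjamini-Hochberg adjustment over all genes tested. SE is the log2 fold change over the square root of F. CPM uses TMM-scaled totals. The code was tested on simulated data. The members and gene lists were chosen with earlier results of these data known. A few genes withheld for evaluation were left out of the lists and are not reported here. Named genes are the members, ITGB4, pathway-list genes that reached 10 CPM in some group or had a called change of 2-fold or more, and the 2 nearest profiles per member. A few list genes outside that rule were named after their values were seen. These are PLG, F7, F9, F13A1, SERPINI1, SERPINB10 and VIM, CDH1 and other marker genes. The labels call the replicates biological and do not say whether they came from separate cultures or animals. The p-values therefore hold only the spread among these libraries, which may be technical. No library was a copy of another (chi-square over degrees of freedom 1.60 to 6.58 within groups). No molecular identifiers are recorded.

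Alternatives used RLE and upper-quartile scaling, 2 other filters, DESeq2 1.42.0, limma-voom (limma 3.58.1), the 2 groups alone, a replicate block and leaving out each library.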

Additional observations from a re-analysis of the deposited data

How the results depend on the processing

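For 6 members in 3 comparisons, 16 alternatives each gave 288 values, of which 285 kept their direction or stayed uncalled and kept their side of the threshold. The exceptions are the SERPINE2 call in lung-recovered against ITGB4-low cells, lost without ITGB4-low replicate 1 or lung-recovered replicate 3, and the F3 call gained without ITGB4-low replicate 2, all given above. With a library left out, the SERPINE2 log2 fold change lay between 0.24 and 0.43 and that of F3 between -0.25 and -0.06, and the cause was not tested. Genes called numbered 4586 in lung-recovered against ITGB4-low cells (3532 to 4748 over all alternatives), 7789 in lung-recovered against ITGB4-high cells (6623 to 8145) and 8554 in ITGB4-low against ITGB4-high cells (7400 to 8635). With the replicate block they numbered 4146, 7213 and 7990, and the block changed no call of a member. No shared deviation of same-numbered libraries was seen, with correlations of -0.0748 to 0.04 over 7 pairs. These pairs are not independent, and the correlations cannot show whether samples were handled as pairs. Of 24 counts of called list genes, 7 moved by over 1.5 times under some alternative, all of them counts of 1 to 5, such as the plasminogen receptor list in lung-recovered against ITGB4-low cells (2 called, 1 without any of 4 libraries named above) and clade B serpins in ITGB4-low against ITGB4-high cells (2 called, 1 with the filter of 1 CPM in 2 libraries). PLAU rests on 8 counts in ITGB4-low cells, which limits the precision of its fold.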
